A study of Mus musculus with 12 samples.

Results

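The genes described here encode S100 calcium-binding proteins. The 6 members, S100a8, S100a9, S100a4, S100a6, S100a10 and S100a11, were taken by name from the gene name column of the deposited expression tables, where they are 6 of 31340 gene rows. RNA had been sequenced from bone marrow cells sorted as hematopoietic stem cells (HSCs) from wild-type (WT) mice, with 3 libraries for each of 4 groups. The groups were unirradiated controls (Ctrl), mice exposed to ionizing radiation (IR) and further irradiated mice labelled Ab_IR and L_IR, and cells were collected 3 days post IR. What Ab and L stand for is not given in the labels, and both names are kept. According to the study's methods the sort gate asked for cells without lineage markers, including Gr-1 and Mac-1 of granulocytes and myeloid cells, that carried Sca-1 and c-Kit and lacked Flt3 and CD34. The labels do not say whether the libraries of a group came from separate animals, so p-values measure the spread between these libraries, which may be technical.

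S100 proteins are small proteins with paired EF-hand loops that open a hydrophobic face when they bind calcium, and they act inside the cell on partner proteins or outside it on receptors. S100a8 and S100a9 form the heterodimer calprotectin, which is abundant in the cytosol of neutrophils and their precursors and is released as an alarmin that signals through Tlr4 and the receptor Ager. S100a4, S100a6, S100a10 and S100a11 work mainly with annexins, myosin and the membrane cytoskeleton in many cell types, S100a10 being the constitutive partner of annexin A2.

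Values were FPKM, fragments per kilobase of transcript scaled to the size of the library, which are given per length and can be compared between genes. Without read counts their depth is unknown, and no counting interval is given. Fold changes are differences of log2(FPKM + 1), which understates changes of low genes. A gene was called when limma gave an adjusted p under 0.05 over all genes tested and an absolute log2 fold change above 1. FPKM summed to 344338 to 405123 per library. Ctrl replicate 1 stood apart: 44.1% of its rows were at 0, where the other 11 libraries had 24.7% to 27.3%. Nppa, an atrial hormone gene, had 51.2 to 63.9 FPKM in 5 libraries, the 3 of IR and Ctrl replicates 2 and 3, and no more than 0.26 FPKM in the other 7, a split that coincides with IR against Ab_IR and L_IR. In bulk RNA, fewer cells of a type and less RNA per cell cannot be told apart.

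All 6 members lie on chromosome 3 of GRCm38, in an S100 gene cluster. In GENCODE M21, S100a4 spans chr3:90603771-90606045 and S100a6 spans chr3:90612882-90624181, both on the plus strand and 6.84 kb apart. S100a8 follows 44.8 kb further at chr3:90668978-90670035 on the plus strand, and S100a9 a further 22.6 kb away at chr3:90692632-90695721 on the minus strand, so that the calprotectin genes point towards each other. S100a11 (chr3:93520488-93526287) and S100a10 (chr3:93555080-93564643) lie 2825 kb beyond S100a9 and 28.8 kb from each other, both on the plus strand. The members are short, with 511 (S100a11) to 1367 (S100a6) merged exon bases, and S100a4 overlaps the same-strand gene Gm42674, so that its reads could be shared. The pseudogene S100a11-ps was listed at no more than 0.15 FPKM, against 201 to 435 FPKM for S100a11.

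The promoters of the calprotectin pair are shown because both transcripts moved together, and those of S100a4 and S100a6 because these neighbours differed in their responses. Each runs from 250 bases before to 50 bases after the RefSeq start site, 5′ to 3′ on the gene's strand in GRCm38.p6, and capitals mark matches on either strand to TATAAA (the box bound by the basal machinery), TTGCNNAA (a C/EBP core), GAGGAA (a PU.1 core) or TGANTCA (an AP-1 site). RefSeq entries were matched for 5 of the 6 members, S100a10 being the one without. The windows lie at chr3:90668821-90669120 for S100a8, chr3:90695672-90695971 for S100a9, chr3:90603520-90603819 for S100a4 and chr3:90612644-90612943 for S100a6.
S100a8: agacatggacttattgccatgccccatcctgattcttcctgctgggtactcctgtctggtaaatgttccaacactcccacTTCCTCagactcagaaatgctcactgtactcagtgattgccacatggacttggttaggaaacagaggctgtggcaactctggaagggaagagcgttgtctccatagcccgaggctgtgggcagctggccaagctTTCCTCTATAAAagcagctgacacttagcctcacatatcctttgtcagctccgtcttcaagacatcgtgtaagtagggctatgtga
S100a9: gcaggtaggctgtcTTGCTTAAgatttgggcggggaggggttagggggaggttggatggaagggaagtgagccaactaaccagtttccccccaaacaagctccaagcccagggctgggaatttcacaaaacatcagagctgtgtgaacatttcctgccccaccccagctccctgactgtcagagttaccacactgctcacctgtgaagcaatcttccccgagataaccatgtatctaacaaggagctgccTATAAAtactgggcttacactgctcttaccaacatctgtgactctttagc
S100a4: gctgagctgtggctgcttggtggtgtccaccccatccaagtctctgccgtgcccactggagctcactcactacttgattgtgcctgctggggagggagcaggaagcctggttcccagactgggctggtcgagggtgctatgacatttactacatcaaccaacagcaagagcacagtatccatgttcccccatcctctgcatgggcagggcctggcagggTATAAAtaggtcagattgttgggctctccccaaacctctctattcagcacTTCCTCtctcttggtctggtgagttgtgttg
S100a6: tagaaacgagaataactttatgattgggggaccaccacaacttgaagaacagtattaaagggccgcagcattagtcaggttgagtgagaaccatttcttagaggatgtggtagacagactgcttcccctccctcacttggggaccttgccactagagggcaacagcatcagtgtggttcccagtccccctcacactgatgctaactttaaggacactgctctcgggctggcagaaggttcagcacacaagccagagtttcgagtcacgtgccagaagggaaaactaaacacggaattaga

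TATAAA stood in the windows of S100a8 (first base 30 bases before the start site), S100a4 (31 bases before it) and S100a9 (at the annotated start itself), and 13.6% of 32851 RefSeq promoter windows of this length hold it. The C/EBP core occurred once, in S100a9 at 236 bases before the start, against 10.8% of all windows. In S100a8 the PU.1 core was read on the opposite strand at 170 and 36 bases before the start, the latter directly beside the TATAAA match without overlapping it, and S100a4 held one at 20 bases after the start; 28.3% of all windows hold this core. The S100a6 window held none of the 4 motifs. The S100a11 window (chr3:93520246-93520545) held the PU.1 core once and the AP-1 site at 136 and 38 bases before the start, a site found in 7.81% of windows. These matches describe letters in a window and do not show that a factor was bound.

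S100a9 and S100a8 were the most abundant members by their mean over the 12 libraries and had their highest levels in IR, although in L_IR the S100a8 mean was level with that of S100a11 (328 and 329 FPKM). S100a8 was listed at 277, 838 and 618 FPKM in Ctrl replicates 1, 2 and 3, at 1567, 1743 and 1793 FPKM in IR, at 567, 613 and 701 FPKM in Ab_IR and at 319, 357 and 307 FPKM in L_IR. The IR libraries lay above every other library, Ab_IR lay inside the range of Ctrl, and L_IR overlapped Ctrl only through Ctrl replicate 1. The group means were 578 ± 283 FPKM (SD, n = 3) in Ctrl, 1701 ± 119 FPKM in IR, 627 ± 67.8 FPKM in Ab_IR and 328 ± 25.8 FPKM in L_IR.

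S100a9 ranked 20 among all rows by its mean over the 12 libraries, and S100a8 ranked 57. S100a9 was listed at 1109, 1814 and 1493 FPKM in Ctrl, at 3573, 3859 and 3864 FPKM in IR, at 1388, 1432 and 1582 FPKM in Ab_IR and at 599, 599 and 579 FPKM in L_IR. The IR libraries were again all the highest, and the L_IR libraries were below every other library, whereas Ctrl and Ab_IR overlapped. Means were 1472 ± 353 FPKM in Ctrl, 3765 ± 167 FPKM in IR, 1467 ± 102 FPKM in Ab_IR and 592 ± 11.4 FPKM in L_IR. Together the calprotectin genes held 1.37% to 1.52% of the FPKM sum in IR, 0.402% to 0.712% in Ctrl, 0.497% to 0.563% in Ab_IR and 0.223% to 0.240% in L_IR.

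The annexin and cytoskeleton partners followed other orders. S100a4, which binds non-muscle myosin, was listed at 6.21, 18.8 and 15.8 FPKM in Ctrl, at 10.6, 9.67 and 10.1 FPKM in IR, at 20.6, 23.5 and 23.2 FPKM in Ab_IR and at 24.0, 19.8 and 23.1 FPKM in L_IR. Its Ab_IR and L_IR libraries overlapped each other and lay above all Ctrl and IR libraries, and Ctrl overlapped IR only through Ctrl replicate 1. S100a10 took the same order at higher levels, with 33.9, 47.4 and 50.1 FPKM in Ctrl, 28.4, 28.2 and 30.8 FPKM in IR, 59.4, 56.2 and 55.6 FPKM in Ab_IR and 55.2, 56.8 and 53.2 FPKM in L_IR. Every IR library was below every Ctrl library for S100a10, and the Ab_IR and L_IR libraries overlapped each other above both.

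S100a6, or calcyclin, named for its link to the cell cycle, had the lowest mean over the 12 libraries, while in IR S100a4 was lower. It was listed at 5.48, 11.01 and 8.90 FPKM in Ctrl, at 16.3, 16.9 and 18.4 FPKM in IR, at 11.3, 13.7 and 15.6 FPKM in Ab_IR and at 7.67, 7.62 and 8.69 FPKM in L_IR. IR stood above Ab_IR and Ab_IR above both Ctrl and L_IR without overlap, and the latter pair overlapped. S100a11, which binds annexin A1, was listed at 201, 351 and 358 FPKM in Ctrl, at 388, 377 and 367 FPKM in IR, at 435.0, 435.0 and 426 FPKM in Ab_IR and at 328, 326 and 333 FPKM in L_IR. It had the narrowest spread between groups, the highest group mean being 1.42 times the lowest, against 6.36 times for S100a9, 5.19 for S100a8, 2.22 for S100a4, 2.15 for S100a6 and 1.96 for S100a10.

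**Figure D1:**
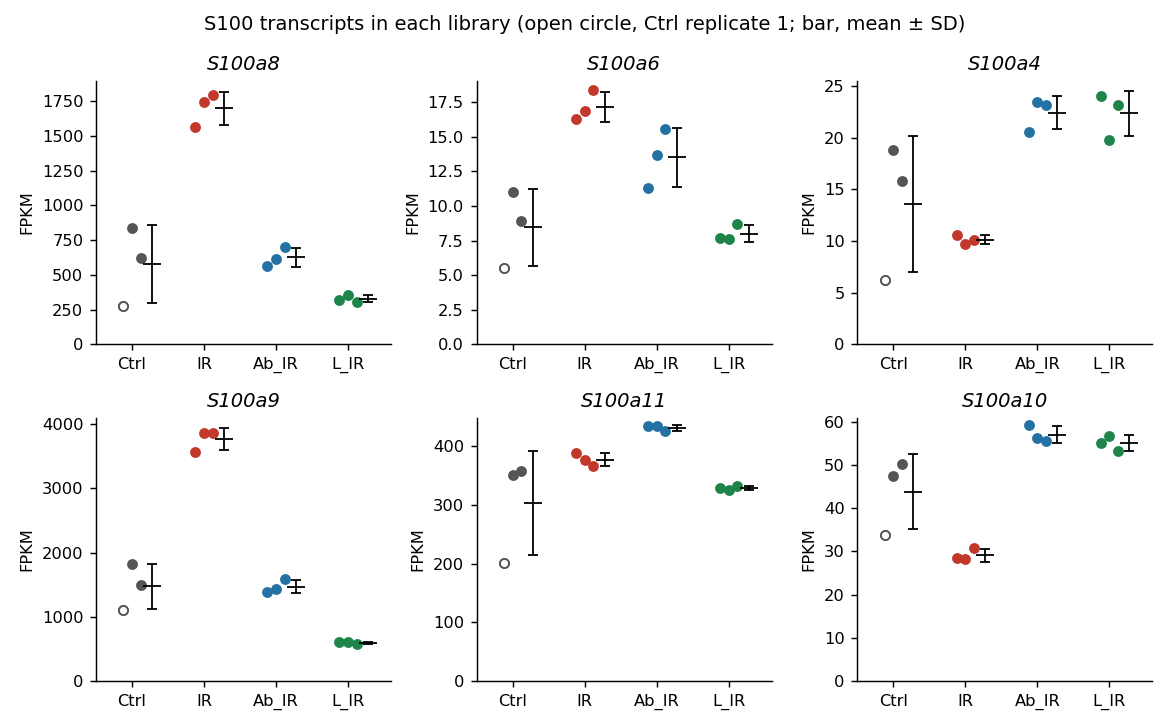
FPKM (vertical axis, from 0) of the 6 S100 genes in the 3 libraries of each group, with the group mean and SD as a black bar beside them and Ctrl replicate 1 as an open circle. The IR libraries are the highest for S100a8, S100a9 and S100a6 and the lowest group for S100a10, and Ctrl replicate 1 is the lowest Ctrl library in all 6 panels.

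Ctrl replicate 1 was the lowest Ctrl library for all 6 members. Its log2 difference from the mean of the other Ctrl libraries ran from -0.51 (S100a10) to -1.38 (S100a8). Short transcripts were low in that library in general, with a median difference of -0.34 and 71.4% below 0 among 927 genes of at most 1500 exon bases whose mean reached 10 FPKM. All 4955 genes of that level had a median difference of 0.01, and 48.4% were below 0. The part of transcript length in the members' values was not tested beyond an alternative that took the length trend out of each library.

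IR against Ctrl asks what radiation changed in the sorted cells. Both calprotectin genes rose. The log2 fold change was 1.70 for S100a8 (SE 0.386, adjusted p = 0.0136, limma) and 1.38 for S100a9 (SE 0.184, adjusted p = 0.00174, limma), their means being 2.95 and 2.56 times those of Ctrl. Thus 2 of 6 members were called, both higher, where 7.6% of 12072 genes tested were called, 3.03% higher and 4.57% lower. S100a6 was 2.03 times as high in IR, and its log2 fold change of 0.99 (SE 0.218, adjusted p = 0.0123, limma) missed the fold threshold by a small margin. S100a10 was lower in IR by a log2 fold change of -0.55 (adjusted p = 0.0249, limma), also short of the threshold. S100a4 (-0.27, 95% interval -1.14 to 0.60) and S100a11 (0.36, interval -0.18 to 0.90) did not pass the adjusted p.

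For 5 of 6 members, S100a4 being the exception, no IR library fell in the range of Ctrl, which held for 58.1% of all genes tested. By adjusted p alone 4 members passed, against 43.1% of all genes. Leaving out Ctrl replicate 1 keeps the comparison among the 5 libraries that carry Nppa. The fold changes were then 1.24 for S100a8, 1.19 for S100a9, 0.74 for S100a6, -0.72 for S100a10 and -0.72 for S100a4, and the calprotectin genes were the 2 members called, where 6.83% of 11593 genes were called. That of S100a11 was 0.09 without this library, and S100a4 was at 0.01 without Ctrl replicate 2. S100a6 passed the fold threshold as well without Ctrl replicate 2 (1.18), Ctrl replicate 3 (1.04) or IR replicate 1 (1.02).

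Ab_IR and L_IR are both set against the same IR libraries, so their values are given side by side and not as independent results. S100a8 fell by 1.44 on the log2 scale in Ab_IR (SE 0.0855, adjusted p = 7.04e-06, limma) and by 2.37 in L_IR (SE 0.0698, adjusted p = 4.71e-07, limma). S100a9 fell by 1.36 in Ab_IR (SE 0.0606, adjusted p = 1.82e-06, limma) and by 2.67 in L_IR (SE 0.0378, adjusted p = 2.56e-08, limma). As ratios of means, IR held 2.71 times the S100a8 of Ab_IR and 5.19 times that of L_IR, and 2.57 and 6.36 times the S100a9. No library of either group reached the lowest IR library for these genes.

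S100a4 rose in both groups, by 1.08 in Ab_IR (SE 0.0597, adjusted p = 5.10e-06, limma) and by 1.07 in L_IR (SE 0.0718, adjusted p = 1.77e-05, limma), to 2.22 and 2.21 times its IR mean. S100a10 was higher in both, at 0.95 in Ab_IR (adjusted p = 3.14e-06, limma) and 0.90 in L_IR (adjusted p = 3.54e-06, limma), just short of the fold threshold. S100a6 fell in L_IR by 1.02 (SE 0.0625, adjusted p = 1.16e-05, limma), and in Ab_IR its log2 fold change was -0.33 (adjusted p = 0.0249, limma), which is under the threshold. S100a11 differed little, at 0.20 in Ab_IR and -0.20 in L_IR, and the Ab_IR value became -0.00970 under quantile normalization.

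In Ab_IR against IR, 1 member was called higher and 2 lower of 6, where 7.57% of 12067 genes were called, 5.11% higher and 2.46% lower. In L_IR against IR, 1 was called higher and 3 lower, where 6.22% of 12163 genes were called, 4.09% higher and 2.13% lower. In both comparisons the ranges of all 6 members were apart, but that held for 73% of all genes tested in Ab_IR against IR and for 71.2% in L_IR against IR. By adjusted p alone all 6 passed in each, against 68.7% and 66.8% of all genes. A fit with the Nppa split as a term can be made only through Ctrl replicate 1, and in it S100a8 was at -0.07 in Ab_IR and -0.997 in L_IR, S100a9 at -0.79 and -2.10, S100a4 at 2.41 in both and S100a6 at 0.42 and -0.27. The calls of S100a8 in both comparisons, of S100a9 in Ab_IR and of S100a6 in L_IR were lost in that fit, S100a10 and S100a11 were called higher in Ab_IR (1.46 and 1.01) and S100a10 in L_IR (1.41). In that fit 16.4% of all genes were called in Ab_IR against IR, 12.4% higher, and 13.1% in L_IR against IR, 10.2% higher, and the split and these group differences cannot be told apart. The calls of S100a4 missed the fold threshold with the length trend taken out (0.95 in Ab_IR and 0.93 in L_IR), and that of S100a6 in L_IR without IR replicate 3 (-0.97), L_IR replicate 1 (-0.99) or L_IR replicate 2 (-0.99).

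**Figure D2:**
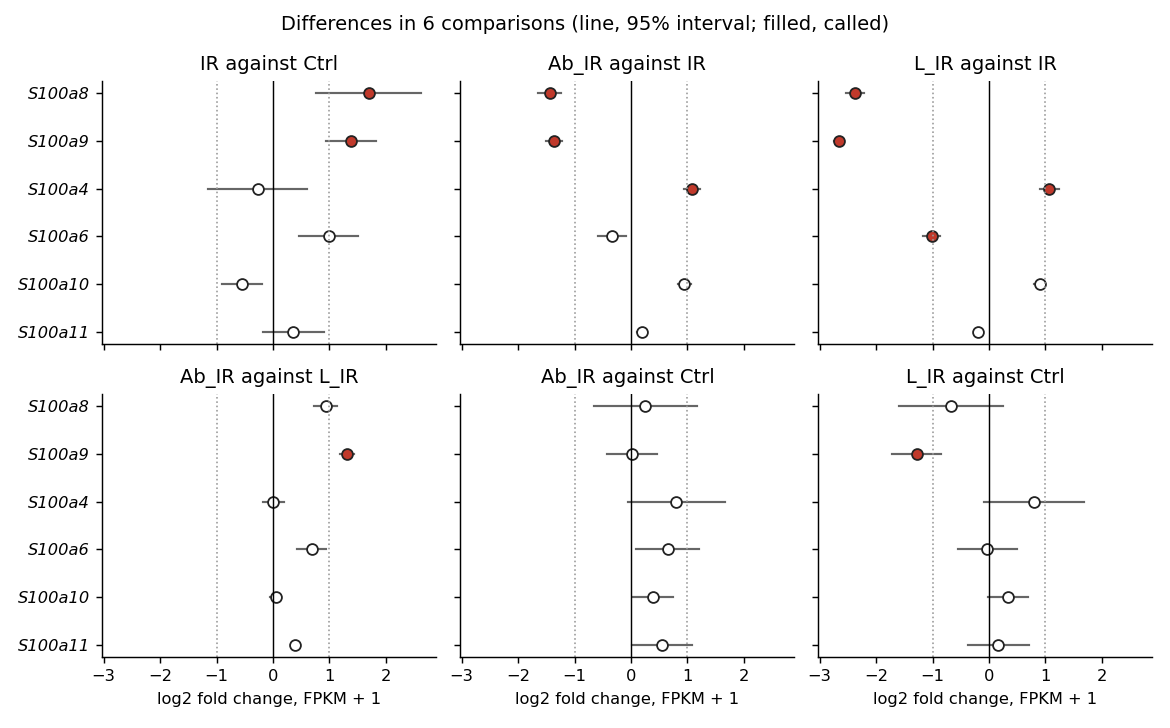
Log2 fold changes of FPKM + 1 (horizontal axis) for the 6 S100 genes in 6 comparisons, with 95% intervals as lines, filled circles for called genes and dotted lines at the fold threshold. S100a8 and S100a9 are called to the right of 0 in IR against Ctrl and to the left in both comparisons with IR, where S100a4 is called to the right; intervals are widest wherever Ctrl is involved.

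Ab_IR against L_IR tests the difference between the added labels, on libraries that lie on the same side of the Nppa split. S100a9 was higher in Ab_IR by 1.31 (SE 0.0544, adjusted p = 1.86e-05, limma) and was the 1 member of 6 called, where 0.533% of 12194 genes were called, 0.295% higher and 0.238% lower. S100a8 was at 0.93 (SE 0.0873, adjusted p = 3.63e-04, limma), short of the fold threshold, which it passed at 1.001 when Ab_IR replicate 1 was left out, so that 2 members were called. In that fit 0.596% of 12085 genes were called. S100a6 (0.68, adjusted p = 0.00286, limma) and S100a11 (0.39, adjusted p = 2.08e-04, limma) were also higher in Ab_IR below the threshold. S100a4 and S100a10 differed by 0.01 (95% interval -0.18 to 0.20) and 0.05 (interval -0.05 to 0.15), and both of these signs changed under some alternatives. The 4 members other than S100a4 and S100a10 had ranges that were apart, against 51.9% of all genes tested, and the same 4 passed the adjusted p alone, against 38% of all genes.

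Set against unirradiated cells, 0 of 6 members were called in Ab_IR with limma, where 0.923% of 12134 genes were called, 0.692% higher and 0.231% lower. By unadjusted p under 0.05, S100a6 (0.65), S100a10 (0.39) and S100a11 (0.56) passed with p of 0.0279, 0.0342 and 0.0425, as did 20.9% of all genes tested, and their adjusted p were 0.197, 0.208 and 0.226. S100a8 (0.25, 95% interval -0.66 to 1.17) and S100a9 (0.02, interval -0.42 to 0.47) had wide intervals, and without Ctrl replicate 1 their values were -0.20 and -0.17. S100a4 stood at 0.80 (interval -0.05 to 1.66). Ab_IR and Ctrl libraries did not overlap for 4 members, S100a4, S100a6, S100a10 and S100a11, against 33.5% of all genes tested. With the Nppa split as a term, 4 members were called higher, S100a8 (1.17), S100a4 (1.70), S100a6 (1.15) and S100a11 (1.10), where 6.77% of 12699 genes were called in that fit and 5.37% higher.

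In L_IR against Ctrl, S100a9 fell by 1.28 (SE 0.178, adjusted p = 0.00773, limma) and was the 1 member called of 6, where 2.65% of 12251 genes were called, 2.03% higher and 0.62% lower. S100a8 was at -0.68 (95% interval -1.60 to 0.25). Without Ctrl replicate 1 it reached -1.14 and was called, S100a9 being at -1.47, so that 2 members were then lower. In that fit 2.76% of 12102 genes were called, 2.15% higher, and 74 genes were lower. The others did not pass the adjusted p, with 0.80 for S100a4, 0.34 for S100a10, 0.16 for S100a11 and -0.03 for S100a6. Groups did not overlap for 3 members, S100a9, S100a4 and S100a10, against 36.1% of all genes tested. With the Nppa split as a term, S100a9 lost its call at -0.90, S100a4 gained one at 1.69, and S100a8 changed sign to 0.24, where 7.21% of 12699 genes were called in that fit and 5.63% higher.

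Ratios within a library do not depend on how the library was scaled. S100a9 over S100a8 was 4.01, 2.16 and 2.42 in Ctrl, 2.28, 2.21 and 2.15 in IR, 2.45, 2.34 and 2.26 in Ab_IR and 1.88, 1.68 and 1.89 in L_IR. The L_IR libraries held less S100a9 per S100a8 than every library of the other groups. A two-sided exact permutation test of L_IR gave p = 0.1 against each other group, the smallest it can give with 3 libraries a group, and 0.15 after adjustment over the 12 ratio tests made. The highest ratio, 4.01, was that of Ctrl replicate 1.

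S100a6 over its neighbour S100a4 was 0.882, 0.586 and 0.563 in Ctrl, 1.54, 1.75 and 1.83 in IR, 0.551, 0.583 and 0.672 in Ab_IR and 0.319, 0.385 and 0.376 in L_IR. S100a6 exceeded S100a4 in the IR libraries and in no other library. Exact permutation p was 0.1 (0.15 adjusted over the 12 tests) for every pair of groups but Ab_IR and Ctrl, which overlapped, with p = 0.6. Across the 12 libraries, which share their groups, Pearson's r of log2(FPKM + 1) was 0.95 between S100a8 and S100a9, 0.90 between S100a8 and S100a6 and 0.89 between S100a4 and S100a10. It was -0.75 between S100a9 and S100a10 and -0.05 between the neighbours S100a4 and S100a6. These values are descriptions over 4 group levels.

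**Figure D3:**
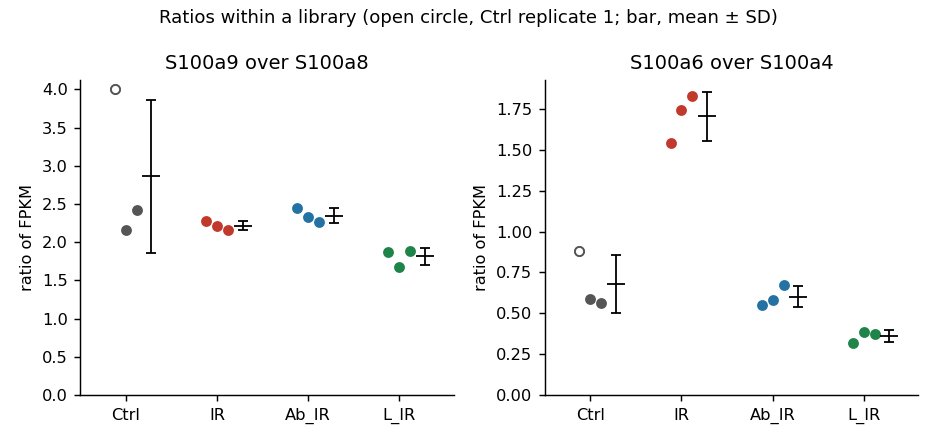
Ratios of FPKM within each library (vertical axis, from 0) by group, with the group mean and SD as a black bar and Ctrl replicate 1 as an open circle. S100a9 over S100a8 is lowest in the L_IR libraries (1.68 to 1.89), and S100a6 over S100a4 is above 1 in the IR libraries (1.54 to 1.83) and below 1 in the rest.

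Of 11 other S100 family genes listed, 9 had a row, and 7 of these (S100a3, S100a5, S100a7a, S100a14, S100a16, S100b and S100z) stayed under 1 FPKM in all libraries. S100a1, a partner of calcium pumps and channels in muscle, ranged from 21.4 to 33.7 FPKM, and S100a13, which takes part in release of proteins that lack a signal peptide, from 7.18 to 17.5 FPKM. Neither was called in IR against Ctrl, Ab_IR against IR or L_IR against IR, with log2 fold changes between -0.24 (S100a13, L_IR against IR) and 0.38 (S100a1, Ab_IR against IR). With the split of the libraries by Nppa as a term this changed: 1 of these 2 genes was called higher in Ab_IR against IR, where their median went from 0.22 to 0.94 and 12.4% of all genes were called higher in that fit, and the median in L_IR against IR turned from -0.20 to 0.52 with 0 called. Both lie in the same cluster as S100a4, at chr3:90511034-90514392 and chr3:90514435-90524581.

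Of 12 receptors and adaptors of secreted S100 proteins tested, 2 rose and 0 fell in IR against Ctrl, and 0 rose and 2 fell in each of Ab_IR and L_IR against IR, where 7.6%, 7.57% and 6.22% of all genes were called, with medians of -0.12, 0.17 and -0.18 beside -0.05, 0.06 and 0.07 over all genes. Under the other scalings, the Nppa split as a term or the length trend taken out, the falls numbered 2 to 3 in Ab_IR and 1 to 4 in L_IR, and with the Nppa split 1 gene also rose in each. Of the 2 calls in each comparison, 1 was Mcam, which passed the filter on low values through the IR libraries alone. The 1 call of 12 left in each comparison is near the share of all genes. Myd88, the adaptor that carries the Tlr4 signal, rose from 23.6 ± 1.32 to 53.4 ± 1.74 FPKM post IR (log2 fold change 1.14) and fell by 1.05 in L_IR to 25.3 ± 1.002 FPKM, while its value in Ab_IR, at -0.99, missed the threshold. The fall in L_IR lost its call without immunoglobulin genes (-0.97). Tlr4 itself was low, at 2.94 ± 0.274 FPKM in Ctrl and 6.01 ± 0.308 FPKM in IR (0.83, not called), and fell by 1.23 in Ab_IR to 1.98 ± 0.0917 FPKM, while its value in L_IR, at 2.62 ± 0.299 FPKM (-0.95), was not called.

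Mcam, an adhesion receptor that binds S100a8 and S100a9, was listed at 0, 0.73 and 0.70 FPKM in the Ctrl libraries and at 2.39, 2.49 and 2.60 FPKM post IR. The Ab_IR libraries had 0.53, 0.52 and 0.30 FPKM and the L_IR libraries 0.38, 0.33 and 0.43 FPKM. Only IR exceeded the filter of 1 FPKM, so the direction of its calls was fixed by the filter and they are no support for a change of the list. Bsg, the most abundant receptor of the list, was not called, at 174 ± 8.60 FPKM in Ctrl and 140 ± 1.89 FPKM in IR.

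Among intracellular partners, 13 were tested. In IR against Ctrl 0 were called higher and 1 lower, in Ab_IR against IR 2 higher and 0 lower, and in L_IR against IR 3 higher and 1 lower, beside 7.6%, 7.57% and 6.22% of all genes called in either direction. The 1 call in IR against Ctrl is near that share. Medians were 0.21, -0.22 and -0.19 beside -0.05, 0.06 and 0.07 over all genes. The count of higher calls depended on the setting, with 1 in IR against Ctrl under quantile normalisation, median scaling or the length trend taken out and 2 without immunoglobulin genes, and ran from 1 to 2 in Ab_IR and 2 to 3 in L_IR. Anxa2, the partner of S100a10, stood at 62.6 ± 0.673 FPKM in IR against 31.2 ± 0.251 FPKM in Ctrl (0.98, adjusted p = 4.99e-05, limma), short of the fold threshold, while S100a10 was lower in IR. It stood at 40.7 ± 0.944 FPKM in Ab_IR and 39.1 ± 1.12 FPKM in L_IR, so that the partners had opposite orders across IR and the other irradiated groups.

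Anxa1, the partner of S100a11, fell by 1.80 in L_IR against IR (SE 0.0264, adjusted p = 2.82e-08, limma), from 260 ± 3.63 to 74.2 ± 1.93 FPKM. Anxa5, which binds phosphatidylserine, fell by 1.35 in IR from 55.6 ± 2.60 to 21.2 ± 0.338 FPKM and rose by 1.66 in Ab_IR and 1.24 in L_IR against IR. Anxa6, a membrane-organizing annexin, rose against IR by 1.05 in Ab_IR and 1.21 in L_IR, the Ab_IR call being lost at 0.999 under median scaling, at 0.997 without immunoglobulin genes and at 0.92 with the length trend taken out. Ahnak, a large scaffold that binds the S100a10 and annexin A2 complex, rose by 1.02 in L_IR to 9.62 ± 0.243 FPKM, with the call lost at 0.92 under quantile normalization, at 0.96 under median scaling, at 0.86 with the Nppa split as a term and at 0.99 without IR replicate 3.

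Calprotectin delivers arachidonic acid to the NADPH oxidase of phagocytes, and all 6 oxidase genes tested had an adjusted p under 0.05 in the direction of S100a8 and S100a9. They were higher in IR than in Ctrl and lower in Ab_IR and L_IR than in IR. Of all genes, 17.5% passed that threshold higher and 25.5% lower in IR against Ctrl, 39.4% and 29.4% in Ab_IR against IR, and 40.8% and 26% in L_IR against IR. Medians of the list were 0.80, -0.50 and -0.85. With the Nppa split as a term, 1 of the 6 was higher and 4 lower in Ab_IR against IR, and 5 were lower in L_IR; with the length trend taken out 5 were lower in Ab_IR. In IR against Ctrl and Ab_IR against IR 0 were called on fold, beside 7.6% and 7.57% of all genes. In L_IR against IR 3 fell, beside 2.13% of all genes called lower. The 0 in IR against Ctrl held under quantile normalisation but became 1 higher under median scaling, without immunoglobulin genes, with the Nppa split, with the length trend taken out and without Ctrl replicate 1, and the 0 in Ab_IR became 1 or 2 lower under the other scalings (immunoglobulin genes left out among them), with the Nppa split and with the length trend taken out. In L_IR against IR Cybb, the membrane subunit, fell by 1.34 from 95.9 ± 0.763 to 37.2 ± 0.679 FPKM, Ncf1 fell by 1.199 from 234 ± 0.660 to 101 ± 1.57 FPKM and Ncf4 fell by 1.01 from 141 ± 1.67 to 69.4 ± 0.705 FPKM. Ncf4 lost its call without immunoglobulin genes (-0.93) and with the Nppa split as a term (-0.91), which left 2 called in each, where 6.78% and 13.1% of all genes were called. Calmodulins and other EF-hand proteins, the wider family of calcium sensors, gave 0 calls among 10 tested in these 3 comparisons, although 4, 2 and 2 were higher and 2, 4 and 6 lower by adjusted p alone; their most abundant member, Calm2, ranged from 177 to 273 FPKM.

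**Figure D4:**
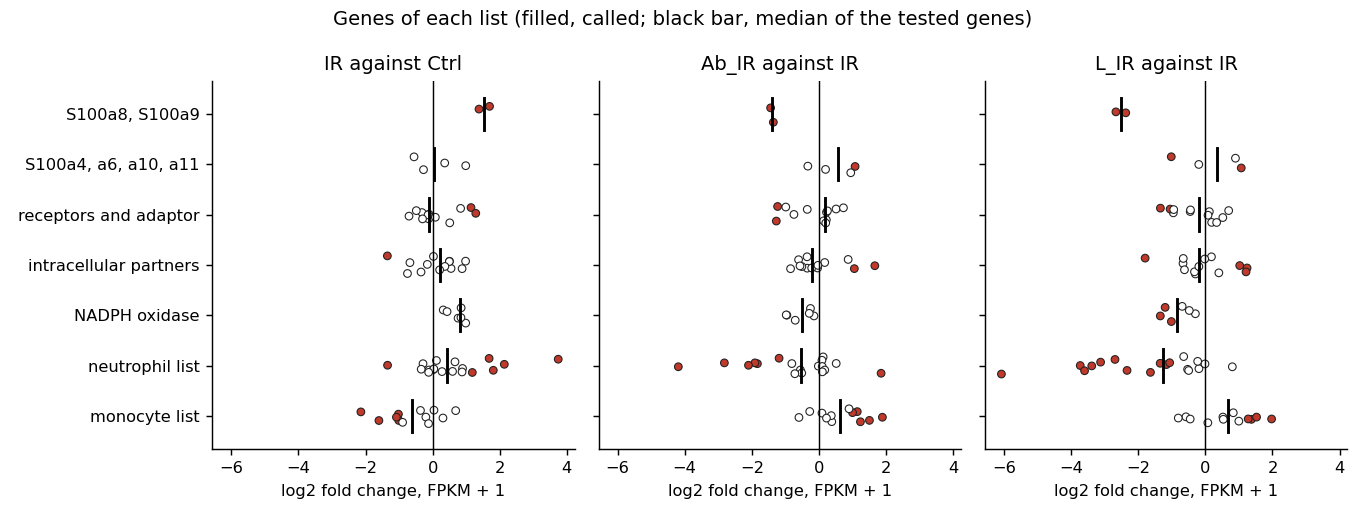
Log2 fold changes of FPKM + 1 (horizontal axis) of single genes (circles, filled where called) in the 2 groups of members and 5 gene lists, with the median of each list as a black bar, in 3 comparisons. The median of S100a8 and S100a9 and those of the NADPH oxidase and neutrophil lists lie right of 0 in IR against Ctrl and left of 0 in Ab_IR and L_IR against IR, and the monocyte list has its median on the other side each time.

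Among the cell type lists, the neutrophil list had medians of the same sign as the calprotectin genes in IR against Ctrl and in Ab_IR and L_IR against IR. The summed level of 18 neutrophil genes was 9899 to 10628 FPKM in Ctrl, 12054 to 12441 in IR, 10048 to 10878 in Ab_IR and 8055 to 8308 in L_IR, and none of the 18 was at 0 or under 1 FPKM throughout, although the gate was to leave out cells with granulocyte markers. In IR against Ctrl 5 of 18 rose (Lcn2, Mmp8, Mmp9, Cxcr2 and Chil3) and 1 fell (Retnlg), these being named after their values were seen. In Ab_IR against IR 1 rose and 6 fell, and in L_IR against IR 0 rose and 11 fell. Of all genes, 3.03% were called higher and 4.57% lower in IR against Ctrl, 5.11% and 2.46% in Ab_IR against IR, and 4.09% and 2.13% in L_IR against IR. With the Nppa split as a term the neutrophil counts were 3 and 6 in Ab_IR and 1 and 9 in L_IR. That fit called 16.4% of all genes in Ab_IR, 12.4% higher, and 13.1% in L_IR, 10.2% higher. Without immunoglobulin genes 7 rose in IR against Ctrl, beside 2.83% of all genes, and 10 fell in L_IR, where 6.78% of all genes were called. List medians were 0.44, -0.53 and -1.25, beside -0.05, 0.06 and 0.07 over all genes. Mpo, the most abundant of the list and a gene of primary granules, ranged from 2859 to 3432 FPKM and was at 0.02, -0.02 and -0.01 in the 3 comparisons. The part of neutrophil-lineage cells in the S100a8 and S100a9 differences was not tested.

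The 12 monocyte genes, led by Lyz2, summed to 924 to 1210 FPKM per library, and their sums in IR (1103 to 1112) lay inside the Ctrl range (1029 to 1210). Their medians had signs opposite to the neutrophil list, at -0.63 in IR against Ctrl, 0.64 in Ab_IR against IR and 0.68 in L_IR against IR. In IR against Ctrl 0 were called higher and 5 lower, beside 3.03% and 4.57% of all genes. In Ab_IR against IR 5 were called higher and 0 lower, beside 5.11% and 2.46%. In L_IR against IR 4 were called higher and 0 lower, beside 4.09% and 2.13%. Of these calls 1 in each comparison was Cx3cr1, which passed the filter only through the group where it was high. The 5 that were lower in IR became 2 without immunoglobulin genes and 3 under the other scalings. By adjusted p alone the list was mixed, with 2 higher and 7 lower in IR against Ctrl, beside 17.5% and 25.5% of all genes. In Ab_IR against IR 9 were higher and 2 lower (39.4% and 29.4% of all genes), and in L_IR against IR 9 and 3 (40.8% and 26%). Ms4a3 had its highest mean in IR, at 461 FPKM beside 291 in Ctrl, 304 in Ab_IR and 263 in L_IR.

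Of 12 HSC and sort markers, led by Ly6a, 4 (Slamf1, Mecom, Fgd5 and Hoxb5) stayed under 1 FPKM in all libraries, in which S100a9 was listed at 579 to 3864 FPKM. Of 7 tested, 0 rose and 4 fell in IR against Ctrl, 4 rose and 0 fell in Ab_IR against IR, and 3 rose and 0 fell in L_IR against IR. Shares of all genes called were 3.03% higher and 4.57% lower, 5.11% and 2.46%, and 4.09% and 2.13% in the same order. Medians of the list were -1.57, 1.28 and 0.97, beside -0.05, 0.06 and 0.07 over all genes. Of the 7, 2 stayed under 1 FPKM in IR and passed the filter only through the other group, so a call of theirs is no support for a change of the list. Ly6a, which encodes the Sca-1 antigen that the gate also required, had the opposite order, at 58.6 ± 4.26 FPKM post IR beside 35.1 ± 8.06 FPKM in Ctrl, 38.1 ± 2.84 FPKM for Ab_IR and 45.6 ± 0.187 FPKM for L_IR, with log2 fold changes of 0.75, -0.61 and -0.35 that were not called on fold (adjusted p = 0.0145, 0.000193 and 0.000761, limma). By adjusted p alone, 1 marker was higher and 5 lower in IR against Ctrl, beside 17.5% and 25.5% of all genes. In each of Ab_IR and L_IR against IR 5 markers were higher and 2 lower, beside 39.4% and 29.4% of all genes in Ab_IR and 40.8% and 26% in L_IR. Kit, Cd34 and Flt3, receptors and a surface glycoprotein of progenitors that the gate used, were among those called in all 3 comparisons and are named after their values were seen. Kit, which the gate required, fell from 23.5 ± 2.09 FPKM in Ctrl to 6.87 ± 0.155 FPKM in IR and stood at 18.2 ± 0.838 FPKM in Ab_IR and 17.9 ± 0.0961 FPKM in L_IR. Cd34 fell from 20.0 ± 0.895 to 3.78 ± 0.125 FPKM and Flt3 from 10.53 ± 1.47 to 1.08 ± 0.131 FPKM in IR, although the gate was to leave out cells that carry either. Without Ctrl replicate 1, 5 markers were tested in IR against Ctrl and 3 fell, where 6.83% of all genes were called. The part of the makeup of the sorted cells in the S100 differences was not tested.

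Further cell type lists also moved with the groups. Beside their counts, 3.03% of all genes were called higher and 4.57% lower in IR against Ctrl. These shares were 5.11% and 2.46% in Ab_IR against IR, and 4.09% and 2.13% in L_IR against IR. Mast cell, basophil and eosinophil genes, led by Prg2, summed to 4923 to 6453 FPKM in Ctrl, 580 to 586 in IR, 7049 to 7222 in Ab_IR and 3120 to 3184 in L_IR, with all 10 lower in IR against Ctrl and higher in both comparisons with IR. All 9 erythroid genes tested, led by Hba-a1, had the same calls, with sums of 536 to 543 FPKM in IR and 1597 to 3655 FPKM elsewhere. Megakaryocyte and platelet genes, led by Ppbp, had 7 of 8 lower in IR, 7 higher in Ab_IR and 6 higher in L_IR, but 4 of the 8 were under 1 FPKM in all IR libraries and passed the filter only through the other group. Bone and stroma genes, led by Col1a1, summed to 12.9 to 14.5 FPKM post IR, beside 177 to 217 FPKM in Ctrl and 53.4 to 61.7 FPKM over the Ab_IR and L_IR libraries. Of those tested in each comparison, 6 were under 1 FPKM in all libraries of one group, so their calls are not counted as support; of the others, 2 were called lower in IR against Ctrl and 2 higher in each of Ab_IR and L_IR. Of 9 T and NK cell genes tested in L_IR against IR, led by Nkg7, 4 were called higher and 0 lower, with a median of 0.85. By adjusted p alone 8 of them were higher, beside 40.8% of all genes. In Ab_IR against IR 1 of 8 was called higher, and in IR against Ctrl 0 of 9 were called. Macrophage genes (led by C1qb) had at most 2 calls in a direction among 10 tested, and B and plasma cell genes (Jchain) at most 2 among 7 to 9 tested. The part of these lists in the S100 values was not tested.

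The genes whose pattern over the 12 libraries was most like that of each member were sought among 4533 genes whose mean reached 10 FPKM, immunoglobulin genes and genes with predicted or clone names left out, by Pearson's r of log2(FPKM + 1), with no test. For S100a8 these were Klhl6 (0.99), Ms4a3 (0.97) and Prss57 (0.97). Pearson's r leaves out the size of changes. Klhl6 means were 24.1, 29.5, 25.5 and 22.7 FPKM in Ctrl, IR, Ab_IR and L_IR, beside 578, 1701, 627 and 328 FPKM for S100a8. For S100a9 the closest genes were Lcn2 (0.99), with means of 75.5, 332, 92.2 and 24.1 FPKM in Ctrl, IR, Ab_IR and L_IR, Wfdc21 (0.99) and Ifitm6 (0.99). Lcn2 encodes an iron-siderophore-binding protein of neutrophil granules.

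For S100a4 the closest genes were Psmb8 (0.98), a subunit of the immunoproteasome, H2-T-ps (0.98) and Polr2e (0.97), a subunit shared by the RNA polymerases. For S100a6 they were Cyba (0.96), the membrane partner of Cybb in the NADPH oxidase, Arpc4 (0.95) and Cdkn2d (0.95), a cyclin-dependent kinase inhibitor. Tk1 (0.99), the thymidine kinase of dividing cells, Ifi47 (0.98) and Cnp (0.98) came closest to S100a10, whose lowest levels were in IR. Taldo1 (0.98), an enzyme of the pentose phosphate pathway, Ap2s1 (0.98) and Sh3bgrl3 (0.97) came closest to S100a11, with Taldo1 means of 128, 150, 172 and 139 FPKM in the same order of groups. The patterns rest on 4 group means and on the low Ctrl replicate 1, and likeness was not tested.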

How the data were processed

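RNA-seq libraries were made from sorted bone marrow cells, with 3 per group, and their titles in the labels gave the groups Ctrl, IR, Ab_IR and L_IR. The deposited values are FPKM, computed by the authors for each library; the files do not name the unit. It was read from the values, which multiplied by exon length in kb summed to 913577 to 945263 per library. The submitters' processing notes name fastp, HISAT2, StringTie and GRCm38, whereas the study's methods name RSEM and DESeq2, so the tool behind the values is uncertain. Strandedness of counting is not given in the sources used here. No whole-read steps were found, the depth is unknown, and no count test was run.

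Each pair of groups was fitted on its own with limma 3.58.1 (R 4.3.3, lmFit and eBayes, trend on) on log2(FPKM + 1), keeping genes that reached 1 FPKM in 3 or more of the 6 libraries and adjusting p by Benjamini-Hochberg over all of them. Names on more than 1 row numbered 62 and were kept as rows. Ratios were tested with two-sided exact permutation tests (scipy 1.17.1), and figures used matplotlib 3.10.9. The scripts were tested on simulated data. Positions come from GENCODE M21, where 96.9% of names matched 1 gene, and promoters from RefSeq.

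The members and gene lists (other S100 genes, receptors, intracellular partners, NADPH oxidase, EF-hand proteins and 10 cell type lists) were chosen with earlier results of these data known. Named partners were those called in IR against Ctrl, Ab_IR against IR or L_IR against IR, else the most abundant of a list, and for cell types the most abundant gene. Other named genes (Anxa2, S100a13, the called neutrophil genes, Cx3cr1, and Kit, Cd34 and Flt3) were chosen after their values were seen. Alternatives were pseudocount 0.1, other filters, quantile and median scaling, leaving out immunoglobulin genes or each library, limma without trend, one fit of all libraries, a replicate block and the Nppa split as a term. Taking out the length trend was added after seeing the data.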

Additional observations from a re-analysis of the deposited data

How the results depend on the processing

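Of 611 values of the members under alternative settings, 559 kept direction and side of the threshold, 18 passed it newly, 11 lost it and 23 changed sign. By the adjusted p alone, 4 members passed in IR against Ctrl (43.1% of all genes), 6 in Ab_IR against IR (68.7%), 6 in L_IR against IR (66.8%) and 4 in Ab_IR against L_IR (38%). With the Nppa split as a term 4 were called in Ab_IR against Ctrl, beside 6.77% of all genes. Leaving out each library gave 2 to 3 members called in IR against Ctrl, 3 to 3 in Ab_IR against IR, 3 to 4 in L_IR against IR, 1 to 2 in Ab_IR against L_IR, 0 to 0 in Ab_IR against Ctrl and 1 to 2 in L_IR against Ctrl. In the same order 6.83% to 7.19%, 6.71% to 7.2%, 5.6% to 5.73%, 0.459% to 0.62%, 0.425% to 0.951% and 2.07% to 2.76% of all genes were called. S100a6 in IR against Ctrl passed the fold threshold in 8 of 17 alternatives, with values of 0.74 to 1.18. Its call in L_IR against IR was lost in 5, among them -0.95 without immunoglobulin genes. It had no value in L_IR against Ctrl with the filter at a mean of 10 FPKM.

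All 23 sign changes were of values that had not been called, and the cause was not tested. Under quantile normalization these were S100a11 in Ab_IR against IR (-0.00970), S100a4 in Ab_IR against L_IR (-0.037) and S100a9 in Ab_IR against Ctrl (-0.17). Without immunoglobulin genes they were S100a4 (-0.13) and S100a10 (-0.093) in Ab_IR against L_IR and S100a6 in L_IR against Ctrl (0.16). With the length trend taken out they were S100a4 (-0.012) and S100a10 (-0.073) in Ab_IR against L_IR and S100a9 in Ab_IR against Ctrl (-0.17). With the Nppa split as a term they were S100a6 in Ab_IR against IR (0.42), S100a11 in L_IR against IR (0.62), and S100a8 (0.24) and S100a6 (0.47) in L_IR against Ctrl.

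Leaving out libraries gave ranges across 0 for S100a4 in IR against Ctrl (-0.72 to 0.011) and in Ab_IR against L_IR (-0.073 to 0.065), for S100a8 (-0.20 to 0.59) and S100a9 (-0.17 to 0.19) in Ab_IR against Ctrl, and for S100a6 (-0.28 to 0.17) and S100a11 (-0.11 to 0.31) in L_IR against Ctrl. The highest over the lowest group mean was 5.97 for S100a8 and 7.97 for S100a9 under quantile normalization, and for S100a9 6.68 under median scaling and 5.999 without immunoglobulin genes.

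Replicate numbers did not pair the libraries, with correlations of deviations of -0.27 to 0.22. With the replicate block 7.69%, 7.57%, 6.22%, 0.541%, 0.758% and 2.4% of all genes were called, and the members called stayed at 2, 3, 4, 1, 0 and 1 in the order of the comparisons above. Among all genes, the number called moved by over 1.5 times with a mean of at least 10 FPKM (385, 350, 278, 40, 68 and 205 in that order), where only 4990 to 5068 genes were tested. The share called was then 7.71%, 7.01%, 5.57%, 0.792%, 1.34% and 4.05%, beside 7.6%, 7.57%, 6.22%, 0.533%, 0.923% and 2.65% in the main fits. The number also moved with a pseudocount of 0.1 (1512 in Ab_IR against IR, 1294 in L_IR against IR, 165 in Ab_IR against L_IR), and with the Nppa term (2079 and 1662 in the comparisons with IR, 860 and 916 in those of Ab_IR and L_IR with Ctrl). In Ab_IR against Ctrl calls numbered 73 without a filter (0.257% of 28409 genes tested), 60 without immunoglobulin genes and 51 to 54 without an Ab_IR library, and in L_IR against Ctrl 207 without immunoglobulin genes. The split of higher and lower calls in L_IR against IR went from 497 and 259 to 371 and 305 under quantile normalization, and in Ab_IR against L_IR from 36 and 29 to 25 and 38 without immunoglobulin genes, 62 and 103 with a pseudocount of 0.1 and 34 and 38 without Ab_IR replicate 3. In IR against Ctrl it turned from 366 and 552 to 211 and 174 with a mean of at least 10 FPKM. Without immunoglobulin genes the median of all genes was 0.15 in L_IR against IR, -0.11 in Ab_IR against L_IR and 0.18 in L_IR against Ctrl.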
